A study of Mus musculus with 16 samples.

Results

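The 6 genes described here encode myosin heavy chains, in mouse hearts with Cap2 intact or deleted in the whole body or in cardiomyocytes. They are Myh6, Myh7 and Myh7b, whose products belong to striated muscle, and Myh9, Myh10 and Myh14, whose products are non-muscle myosins. They were taken by symbol, and each had 1 row among the 38087 gene rows of experiment A and 1 row among the 54232 rows of experiment B. CAP2 (cyclase-associated protein 2) is an actin-binding protein of striated muscle. In experiment A, 3 hearts of whole-body CAP2 -/- mice were set against 3 wild type hearts, all from C57BL/6 females aged 86 weeks. In experiment B, 4 Cre+ hearts (3 female, 1 male) were set against 5 Cre- hearts (3 female, 2 male), all at 13 weeks on C57BL/6. Both groups of experiment B were homozygous for the loxP allele, and the Cre+ mice also carried Cre under the Myh6 promoter, which is active in cardiomyocytes. None of the groups carried Cre without the loxP allele, so Cre itself and loss of Cap2 cannot be told apart in experiment B.

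A sarcomeric myosin is a hexamer of a pair of heavy chains and 4 light chains. The heads of the heavy chains pull on actin and their tails form the thick filament. Adult mouse ventricle uses mainly the alpha chain, the product of Myh6, whose ATPase is fast. The beta chain, the product of Myh7, is slower, predominates in the mouse ventricle before birth, and is a textbook marker of the stressed rodent heart. Myh7b is an ancient relative whose transcript in heart carries a microRNA. Myh9, Myh10 and Myh14 encode the non-muscle chains IIA, IIB and IIC, which form contractile filaments outside the sarcomere. MicroRNAs lie within introns of all 3 striated muscle genes, and that of Myh6 is known in mice to be needed for Myh7 to be raised under load.

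Myh6 and Myh7 lie next to each other on the minus strand of chromosome 14, at chr14:54941921-54966927 and chr14:54970684-54994626 (GRCm38, GENCODE M21), and their coding sequences are so alike that reads can fit either gene. In the main transcripts, 33.1% of the 30-base words of Myh7 and 33.2% of those of Myh6 also occurred in another gene, against 0.277% for Myh7b, 1.88% for Myh9, 1.43% for Myh10 and 0.377% for Myh14. Shown here are a fully shared and an unshared exon of Myh7, each with its Myh6 counterpart. Exon 20 of Myh7 (chr14:54985725-54985842, minus strand, 118 bases) and exon 18 of Myh6 (chr14:54957143-54957260) have 0 differing bases. Exon 25 of Myh7 (chr14:54983242-54983418, minus strand, 177 bases) and exon 23 of Myh6 (chr14:54952954-54953130) differ at 17 bases, with no identical run longer than 27 bases. Sequences are in lower case, 5′ to 3′, and capitals mark the bases at which the pair differs.
Myh7 exon 20 and Myh6 exon 18: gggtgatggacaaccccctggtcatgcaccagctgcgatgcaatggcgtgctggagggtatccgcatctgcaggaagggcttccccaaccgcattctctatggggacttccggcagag
Myh7 exon 25: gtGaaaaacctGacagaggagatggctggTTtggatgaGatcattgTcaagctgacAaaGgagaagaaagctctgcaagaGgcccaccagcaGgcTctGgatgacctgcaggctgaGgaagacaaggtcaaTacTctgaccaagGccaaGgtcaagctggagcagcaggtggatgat
Myh6 exon 23: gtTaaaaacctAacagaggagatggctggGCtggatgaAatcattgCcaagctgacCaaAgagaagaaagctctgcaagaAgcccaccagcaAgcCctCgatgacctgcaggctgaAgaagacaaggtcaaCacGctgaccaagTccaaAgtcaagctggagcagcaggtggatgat

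The mature microRNAs of the 3 introns also form a family, and they are shown because these sequences are what the host genes release beside their heavy chains (RefSeq, GRCm38.p6). Capitals mark the seed, bases 2 to 8.
mmu-miR-208a-3p, in Myh6: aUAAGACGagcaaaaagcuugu
mmu-miR-208b-3p, in Myh7: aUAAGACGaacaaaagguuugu
mmu-miR-499-5p, in Myh7b: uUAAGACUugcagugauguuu
The first pair share a seed, and the seed in Myh7b differs from it in its last base. The libraries say little of these RNAs: Mir499 was listed at 0 in all 15 libraries, Mir208a and Mir208b were listed at 0 in all 9 libraries of experiment B, and in experiment A Mir208b had 5.16 to 20.2 estimated counts.

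Sequencing depth in experiment A ran from 11476447 to 15927347 estimated counts among CAP2 -/- hearts and from 10750175 to 27440478 among wild type hearts. The nuclear genes of experiment B summed to 3815980 to 4044523 normalized counts, and the depth behind them is unknown. Mitochondrially encoded genes took 23.0 to 52.7% of the total in Cre+ hearts and 30.4 to 69.5% in Cre- hearts. Cap2 itself ranged from 8.36 to 16.1 CPM, counts scaled to a common library size, in CAP2 -/- hearts and from 197 to 228 CPM in wild type hearts, and it averaged 65.0 ± 24.2 normalized counts in Cre+ hearts (SD, n = 4) and 391 ± 288 in Cre- hearts (n = 5). All 8 cardiomyocyte markers were above 0 in every library; 1 of them rose in A (Actc1, cardiac actin, by 1.11 on the log2 scale) and 1 fell in B (Pln, phospholamban, by 1.53). DESeq2 called 2 in A, and Pln in B missed 0.05 without Cre+ replicate 2, 3 or 4 or Cre- replicate 1, 2 or 3 (adjusted p up to 0.171, limma) and with TMM scaling (0.0540). The labels give the tissue as heart. In A the atrial light chains Myl7 and Myl4 were at 1.10 to 1.74 CPM and 5.71 to 11.3 CPM. Sln, atrial sarcolipin, was listed at 0 in 4 libraries, and ventricular Myl2 was at 6889 to 11072 CPM. Because this is RNA of mixed tissue, fewer cells of a type and less RNA per cell cannot be told apart.

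Myh6 had the highest level in every group, and the order of the other chains differed between groups. All levels in this paragraph are per kilobase of exon. In CAP2 -/- hearts Myh6 averaged 5796 CPM per kb, Myh7 464, Myh14 19.4 ± 1.59, Myh9 17.2 ± 3.48, Myh10 5.04 ± 0.983 and Myh7b 3.36 ± 0.933. In wild type hearts the order was Myh6 at 5698 CPM per kb, Myh7 at 387, Myh14 at 19.9 ± 3.39, Myh9 at 18.5 ± 3.51, Myh7b at 5.87 ± 1.12 and Myh10 at 5.59 ± 0.939 (SD, n = 3 in each group). Myh14 and Myh9 in both groups, and Myh7b and Myh10 in wild type hearts, lay within each other's spread.

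In Cre+ hearts Myh6 averaged 13655 normalized counts per kb, Myh7 624 ± 219, Myh14 74.8 ± 15.1, Myh9 58.9 ± 9.42, Myh7b 46.3 ± 60.9 and Myh10 17.6 ± 1.91 (SD, n = 4). In Cre- hearts Myh6 averaged 13033, Myh7b 164.4 ± 161, Myh7 109 ± 57.6, Myh14 71.0 ± 17.6, Myh9 48.1 ± 14.5 and Myh10 18.1 ± 6.12 (n = 5). Myh7 thus stood alone in second place in Cre+ hearts, whereas in Cre- hearts Myh7b, Myh7 and Myh14 could not be set apart by their spread. The alpha chain exceeded every other chain in all 15 libraries.

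**Figure D1:**
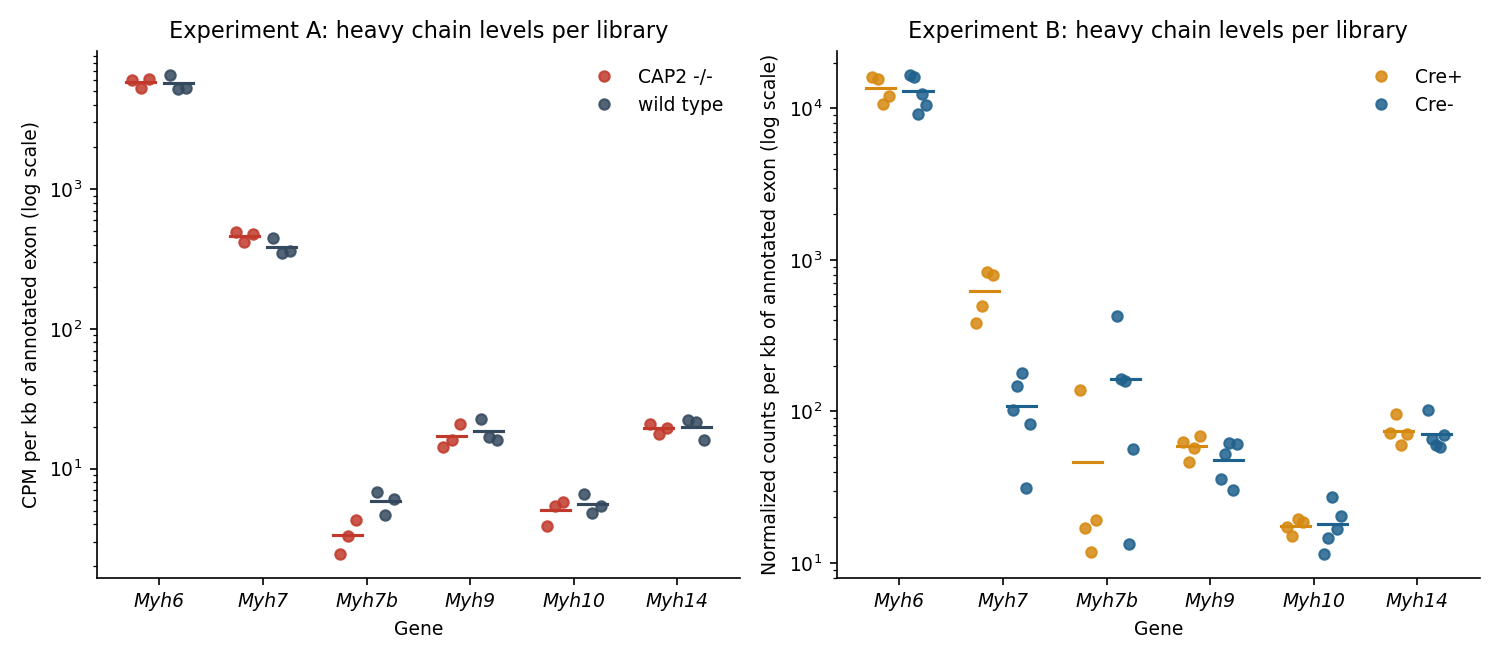
Level of each myosin heavy chain per kilobase of exon in every library, on a log axis. Experiment A is in CPM per kb and experiment B in normalized counts per kb. Points are libraries, with CAP2 -/- and Cre+ hearts left of their controls. Myh7 in Cre+ hearts lies above all Cre- hearts, and Myh7b in CAP2 -/- hearts lies below all wild type hearts.

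Myh7, the gene of the beta chain, rose in Cre+ hearts and was the only member whose change passed the test in experiment B. It had 3308, 4249, 7131 and 6823 normalized counts in Cre+ hearts and 885, 1275, 1544, 268 and 712 in Cre- hearts. The lowest Cre+ heart stood above the highest Cre- heart. The means were 5378 ± 1890 in Cre+ hearts (SD, n = 4) and 937 ± 496 in Cre- hearts (n = 5), a ratio of 5.74. The log2 fold change was 2.57 (SE 0.44, adjusted p = 0.0203, limma with Benjamini-Hochberg adjustment over 12141 genes). Across all genes tested 1.88% passed, 0.947% as higher and 0.931% as lower, and 8.66% had groups that did not overlap.

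In the 6 female hearts alone the log2 fold change of Myh7 was 1.95 (SE 0.33, adjusted p = 0.0214, limma), so the direction did not rest on the males. The adjusted p ranged from 0.00429 to 0.0974 when each heart was left out, and it missed 0.05 without Cre+ replicate 2, 3 or 4 and without Cre- replicate 1 or 2.

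Atrial markers were higher in the same hearts. Of 8 tested, 0 passed and 3 had an unadjusted p under 0.05 (limma), with a median log2 fold change of 4.03 against -0.12 over all genes. Their sum was 84063 to 175584 normalized counts in Cre+ hearts and 118 to 10524 in Cre- hearts. Nppa, the gene of atrial natriuretic peptide, which stressed ventricle also makes, gave 64.8 to 99.2% of that sum in Cre+ hearts. Myl7, the atrial regulatory light chain, had 105, 6996, 10677 and 17044 normalized counts in Cre+ hearts and 21, 344, 3014, 16 and 58 in Cre- hearts. Cre+ replicate 1, lowest for Myl7 among Cre+ hearts, also had the least Myh7 of them, 3308 normalized counts. Cre- replicate 3, highest for Myl7 among Cre- hearts, also had the most Myh7 of them, 1544. The order did not hold throughout. Cre+ replicate 4 had the most Myl7 of all but less Myh7 (6823) than Cre+ replicate 3 (7131). Cre+ replicate 1 had less Myl7 than Cre- replicate 3 and yet more Myh7. The part of atrial tissue in the Myh7 values was not tested. With Myl7 as a covariate, an alternative chosen after the data were seen, the log2 fold change of Myh7 was 1.69 (SE 0.41, adjusted p = 0.345, limma). With the whole atrial sum as a covariate, which separates the groups almost as the label does, it was -0.11 (SE 0.61, adjusted p = 0.972), and 0 of 12141 genes passed. In that limma fit 1291 genes had an unadjusted p under 0.05. With the mitochondrial share as a covariate it was 2.81 (SE 0.53, adjusted p = 0.0722). In the ventricle list 0 of 4 genes passed in B, with 1 at an unadjusted p under 0.05 and a median of -0.54.

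In experiment A the Myh7 gene row differed little between groups. It had 4281, 3596 and 4115 CPM in CAP2 -/- hearts and 3875, 2990 and 3130 CPM in wild type hearts. The groups overlapped, since wild type replicate 1 exceeded CAP2 -/- replicate 2. The means were 3997 ± 357 CPM in CAP2 -/- hearts and 3332 ± 476 CPM in wild type hearts (SD, n = 3 each), and the log2 fold change was 0.26 (SE 0.12, adjusted p = 0.459, edgeR quasi-likelihood test with Benjamini-Hochberg adjustment over 16297 genes). The authors' deposited table gives Myh7 a log2 fold change of 0.26 and an adjusted p of 0.497. In experiment A 1.35% of all genes passed, 0.841% as higher and 0.509% as lower, and 15.6% had groups that did not overlap.

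The exon rows of experiment A gave a different picture of Myh7, by how much each exon shares with Myh6. Of the 41 exons of the main transcript 39 were matched, and 15 of them, 1567 bases in all, shared no 30-base word with another gene. These unshared exons had 67.9, 180 and 171 CPM per kb in CAP2 -/- hearts and 53.8, 67.2 and 38.7 CPM per kb in wild type hearts. All 3 CAP2 -/- hearts were above the wild type hearts, although replicate 1 only just. The exons that were mostly shared had 1375, 1007 and 1166 CPM per kb in CAP2 -/- hearts and 1309, 930 and 1051 CPM per kb in wild type hearts, and there the groups overlapped. The mostly shared exons held 64.4 to 76.2% of all exon counts of Myh7 and the unshared ones 1.94 to 8.09%. As a class, the mostly shared exons thus ran several times or more above the unshared ones of the same transcript, in every library of experiment A.

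The median log2 ratio of CAP2 -/- over wild type was 1.34 over the 15 unshared exons (range 0.15 to 1.95), 0.77 over 12 partly shared exons and 0.09 over 11 mostly shared exons. Replicate 2 of the CAP2 -/- hearts was above all wild type hearts in 15 of the 15 unshared exons, replicate 3 in 14 and replicate 1 in 6. The exons printed above are a fully shared and an unshared exon, and exon 20 does not show the high level of its class. Exon 20, identical to its Myh6 partner, had 377, 141 and 147 CPM per kb in CAP2 -/- hearts and 378, 196 and 196 CPM per kb in wild type hearts. That partner, Myh6 exon 18, was low too, at 143, 62.2 and 89.4 CPM per kb and 89.7, 103 and 123 CPM per kb. Exon 40 of Myh7, also fully shared, had 3242, 1788 and 2538 CPM per kb in CAP2 -/- hearts and 2260, 2331 and 2509 CPM per kb in wild type hearts. Exon 38 of Myh6, fully shared as well, had 3513, 2016 and 2713 CPM per kb and 2479, 2494 and 2844 CPM per kb. Exon 25, with 17 differing bases, had 116, 326 and 261 CPM per kb in CAP2 -/- hearts and 102, 109 and 69.2 CPM per kb in wild type hearts. For Myh6, far more abundant, the median log2 ratios of CAP2 -/- over wild type were 0.00, -0.05 and 0.00 over 15 unshared, 13 partly shared and 10 mostly shared exons. Exons of 1 gene are parts of the same RNA and are not replicates.

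**Figure D2:**
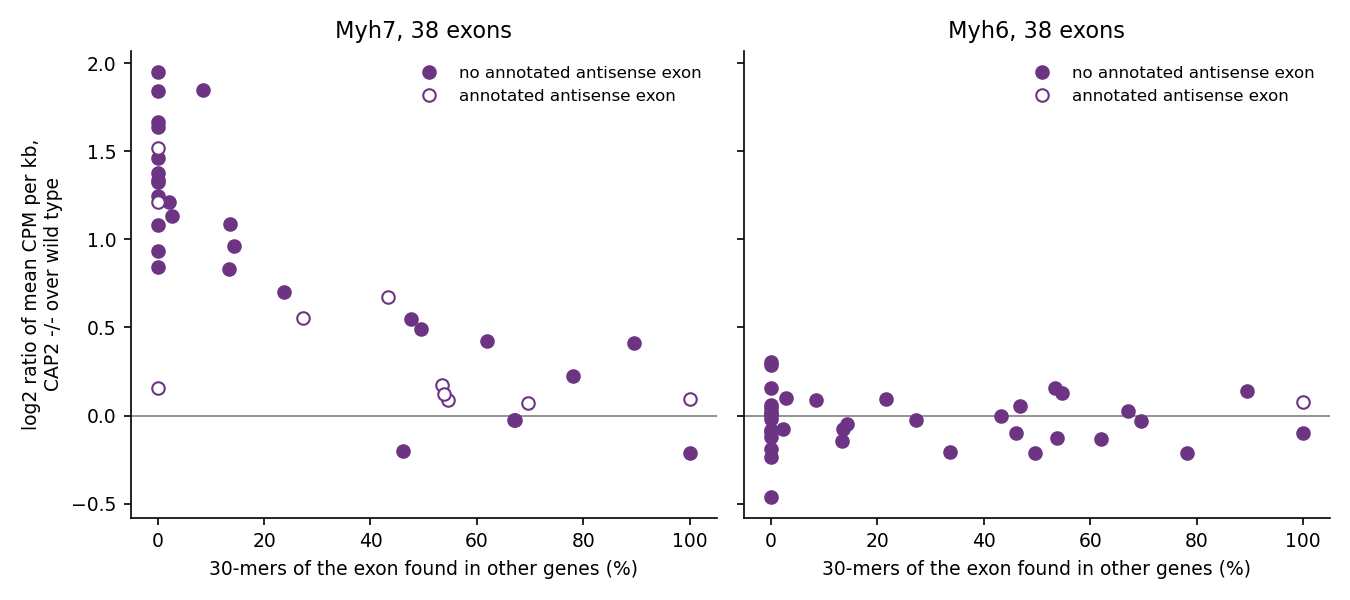
Log2 ratio of CAP2 -/- over wild type for each exon (CPM per kb) against the percent of its 30-base words found in another gene, for Myh7 and Myh6, 38 exons each; open symbols are exons with an annotated antisense exon. Myh7 exons with no shared word lie mostly above 1 and those that are mostly shared lie near 0, while Myh6 exons lie near 0 throughout.

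Counting Myh7 by its unshared exons, an alternative chosen after the data were seen, put the log2 fold change at 1.43 (SE 0.45, adjusted p = 0.379, edgeR quasi-likelihood test). The larger value did not pass, and 1 heart decided it: without CAP2 -/- replicate 1 it was 1.75 (SE 0.19, adjusted p = 7.00e-04, edgeR). The adjusted p reached 0.713 when another heart was left out. CAP2 -/- replicate 1 matched its label in Cap2 (8.36 CPM) and in Nppa (3809 CPM). With words of 20 or 50 bases the fold change was 1.43 (adjusted p = 0.474, edgeR) and 1.34 (adjusted p = 0.351, edgeR), and without the exons that an antisense gene overlaps it was 1.46 (adjusted p = 0.393, edgeR). Myl7, the atrial light chain, was at 1.12 to 1.74 CPM in CAP2 -/- hearts and 1.10 to 1.32 CPM in wild type hearts, and the ranges overlapped. Of 7 atrial markers tested in A, 2 rose, Nppa (5.48 on the log2 scale) and the secreted Wnt modulator Dkk3 (1.26), by edgeR. DESeq2 called 4 of the 7, and 5 had an unadjusted p under 0.05 in edgeR. Those 5 included Bmp10 (2.97, adjusted p = 0.0612, edgeR), at no more than 2.61 CPM in any library. The other atrial light chain, Myl4 (0.76, adjusted p = 0.0856, edgeR), was at 9.64 to 11.3 CPM in CAP2 -/- hearts and 5.71 to 7.03 CPM in wild type hearts. Stard10, also among them, was lower (-0.38, adjusted p = 0.257, edgeR). Nppa made up 98.5 to 98.8% of the atrial marker sum in CAP2 -/- hearts, and the sum was 3867 to 4606 CPM in CAP2 -/- hearts and 124 to 167.5 CPM in wild type hearts, and its part in the Myh7 values was not tested.

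**Figure D3:**
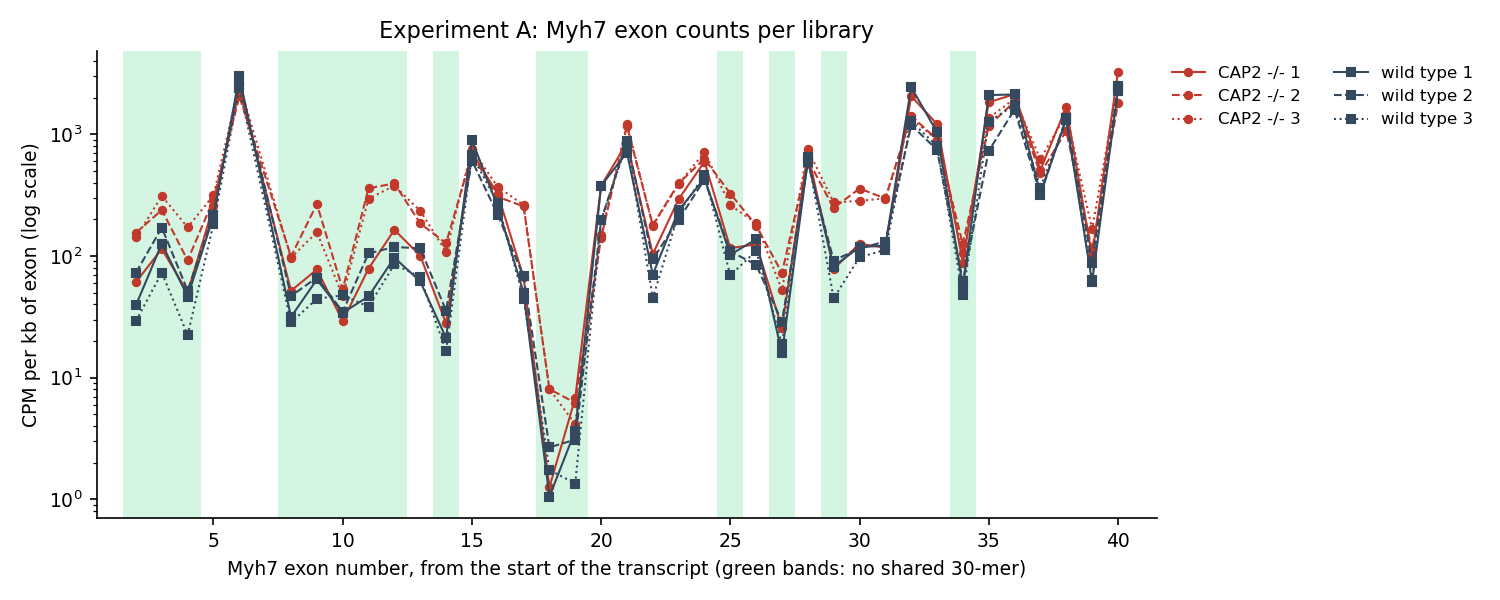
Level in CPM per kilobase along the exons of the main Myh7 transcript in the 6 libraries of experiment A, on a log axis; lines are libraries and shaded bands mark exons with no 30-base word in another gene. Within the bands CAP2 -/- replicate 2 lies above all wild type libraries in 15 of 15 exons and replicate 3 in 14; outside them some exons of low sharing, such as exon 17 (66.6, 255 and 262 in CAP2 -/- hearts, 49.8, 67.9 and 44.5 in wild type hearts), split in the same way, and mostly shared exons are higher with a median log2 ratio of 0.09.

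The Myh7 share of Myh6 plus Myh7 sets the beta chain against the sum of both cardiac chains and needs no scaling between libraries. In experiment B it was 2.94, 3.91, 9.02 and 7.70% of normalized counts in Cre+ hearts and 0.782, 1.16, 2.42, 0.318 and 0.997% in Cre- hearts. Each Cre+ heart was above each Cre- heart. The means were 5.89 ± 2.93% in Cre+ hearts (n = 4) and 1.13 ± 0.785% in Cre- hearts (n = 5), a difference of 4.76 points. The exact two-sided permutation test gave p = 0.0159, the smallest this design allows, and 0.0635 after Benjamini-Hochberg adjustment over the 4 share tests made. Within females the difference was 3.84 points (exact permutation p = 0.1, the smallest that 3 against 3 allows), and a male pair of groups held only 1 Cre+ heart. The share was below 10% in every heart, so the alpha chain gene gave most of the cardiac heavy chain reads in all of them.

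In experiment A the share from the gene rows was 9.56, 9.25 and 9.09% in CAP2 -/- hearts and 8.05, 7.84 and 8.09% in wild type hearts. The groups did not overlap. The means were 9.30 ± 0.236% in CAP2 -/- hearts and 7.99 ± 0.131% in wild type hearts (SD, n = 3 each), a difference of 1.31 points (exact two-sided permutation p = 0.1, the smallest possible with 3 against 3, adjusted 0.2). These levels include the reads of shared exons. Per base of unshared exons the share was 1.21, 3.51 and 3.05% in CAP2 -/- hearts and 0.933, 1.32 and 0.762% in wild type hearts. There CAP2 -/- replicate 1 fell within the wild type range, and the difference was 1.58 points (exact two-sided permutation p = 0.2). Gene rows divided by annotated exonic length gave shares of 7.62, 7.37 and 7.24% in CAP2 -/- hearts and 6.40, 6.23 and 6.43% in wild type hearts. The share by unshared exons was below these values in every heart. Experiment B has no exon rows, so the same could not be asked of it.

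**Figure D4:**
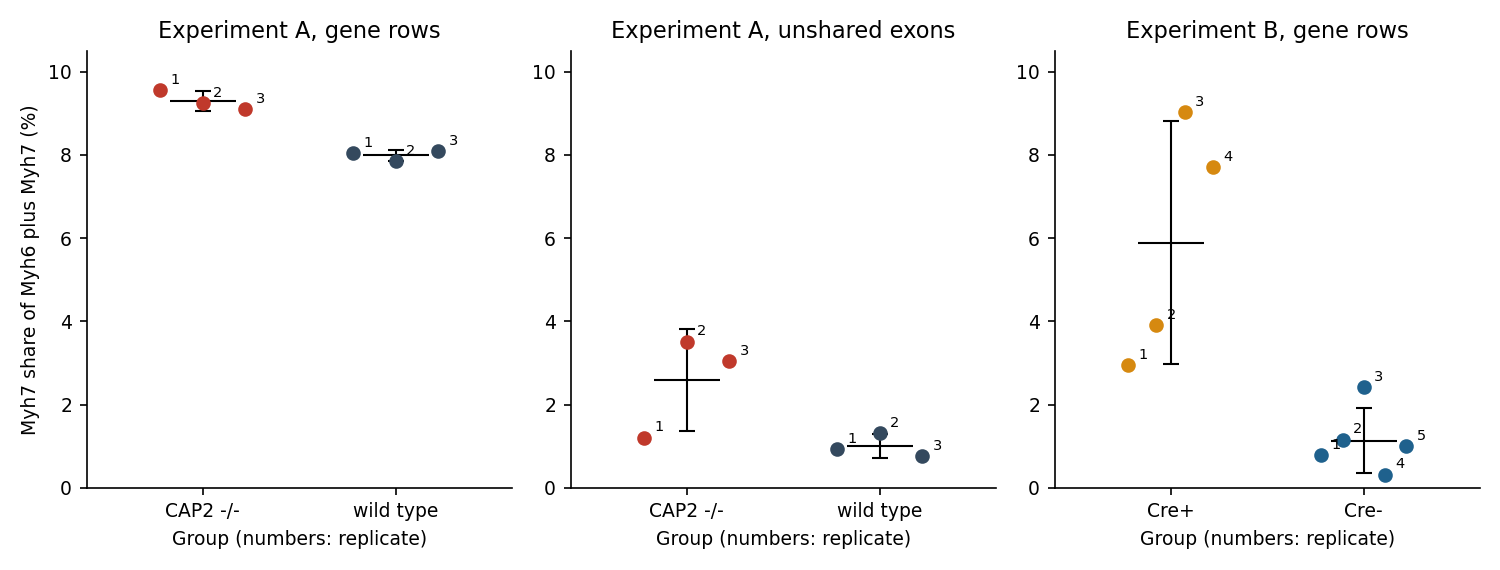
Myh7 share of Myh6 plus Myh7, in percent, for each numbered replicate. It is shown for experiment B, for experiment A from gene rows and for experiment A per base of unshared exons. Lines are means with SD, and CAP2 -/- and Cre+ hearts are left of their controls. Cre+ hearts lie between 2.94 and 9.02% and Cre- hearts between 0.318 and 2.42%.

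Myh6, the gene of the alpha chain, did not pass the test in either experiment. It had 40522, 35283 and 41142 CPM in CAP2 -/- hearts and 44272, 35133 and 35579 CPM in wild type hearts, and the groups overlapped. Its log2 fold change was 0.02 (SE 0.11, adjusted p = 0.967, edgeR). In experiment B it had 109182, 104490, 71898 and 81800 normalized counts in Cre+ hearts and 112291, 109047, 62249, 84003 and 70716 in Cre- hearts. These overlapped throughout, and the log2 fold change was 0.05 (SE 0.31, adjusted p = 0.936, limma).

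Myh7b was lower on average in CAP2 -/- hearts and in Cre+ hearts than in their controls, and in neither experiment did it pass the main test. In experiment A it had 16.3, 21.8 and 28.7 CPM in CAP2 -/- hearts and 45.5, 30.9 and 40.4 CPM in wild type hearts. Every CAP2 -/- heart was below every wild type heart. The means were 22.3 ± 6.19 CPM in CAP2 -/- hearts and 38.9 ± 7.42 CPM in wild type hearts (SD, n = 3 each), and the log2 fold change was -0.80 (SE 0.20, adjusted p = 0.0720, edgeR). The authors' deposited table gives Myh7b a log2 fold change of -0.81 with an adjusted p of 0.00732, and DESeq2 run on the same counts gave -0.81 with 0.00787, so the call depended on the tool. It also passed in edgeR without CAP2 -/- replicate 3 (adjusted p = 0.0237) and without wild type replicate 2 (adjusted p = 0.0257). Of 40 matched Myh7b exons of 30 bases or more, 37 had a log2 ratio below 0, and the median was -1.16. In 14 of them every CAP2 -/- heart was below every wild type heart. Most exons of the non-muscle members were also below 0. It was so in 29 of 40 for Myh9, 26 of 40 for Myh10 and 23 of 39 for Myh14. Every CAP2 -/- heart was below every wild type heart in 2, 2 and 3 exons of these genes. Exons of 1 gene are not replicates, and the Myh7b median is lower than the gene row's -0.80. The unshared Myh7b exons together held 126, 227 and 359 estimated counts in CAP2 -/- hearts. No other member had so low a median over its exons: it was -0.27 for Myh10, -0.20 for Myh9, -0.05 for Myh14, -0.02 for Myh6 and 0.84 for Myh7.

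In experiment B Myh7b had 912, 112, 78 and 127 normalized counts in Cre+ hearts and 2838, 1088, 1061, 89 and 376 in Cre- hearts. The groups overlapped, with 1 high Cre+ heart and 1 low Cre- heart. The log2 fold change was -2.16 (SE 0.76, adjusted p = 0.144, limma), and with the mitochondrial share as a covariate it was -1.16 (SE 0.76, adjusted p = 0.4658). The last bases of Myh7b overlap Trpc4ap on the other strand, and whether the counting of experiment A used strand is not given in the sources used here.

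The non-muscle chains did not pass in either experiment, and their groups overlapped in each. Myh9, the IIA chain, ranged from 185 to 272 CPM in CAP2 -/- hearts and from 209 to 292 CPM in wild type hearts (log2 fold change -0.11, SE 0.16, adjusted p = 0.882, edgeR). In experiment B it ranged from 603 to 888 normalized counts in Cre+ hearts and from 389 to 798 in Cre- hearts (0.34, SE 0.27, adjusted p = 0.483, limma). Myh10, the IIB chain, ranged from 41.0 to 60.3 CPM in CAP2 -/- hearts and from 50.1 to 69.3 CPM in wild type hearts (-0.15, SE 0.16, adjusted p = 0.823, edgeR). In Cre+ hearts Myh10 ranged from 158 to 204 normalized counts, and in Cre- hearts from 120 to 287 (0.03, SE 0.26, adjusted p = 0.948, limma). Myh14, the IIC chain, ranged from 129 to 152 CPM in CAP2 -/- hearts and from 117 to 162 CPM in wild type hearts (-0.04, SE 0.13, adjusted p = 0.957, edgeR). In Cre+ hearts Myh14 ranged from 435 to 696 normalized counts and in Cre- hearts from 424 to 738 (0.06, SE 0.23, adjusted p = 0.898, limma).

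The Myh10 share of Myh9 plus Myh10 asks the same of this pair as the share of the cardiac chains. It averaged 19.2 ± 1.90% in CAP2 -/- hearts and 19.7 ± 1.36% in wild type hearts (n = 3 each, exact permutation p = 0.6, adjusted 0.6). In experiment B it averaged 19.6 ± 1.88% in Cre+ hearts (n = 4) and 23.6 ± 5.09% in Cre- hearts (n = 5), with an exact permutation p of 0.19 (adjusted 0.254). Neither difference was larger than the spread between hearts. Fibroblasts, endothelium and macrophages are known to be rich in Myh9, and 0 of 8 markers passed for each of them in either experiment by edgeR in A or limma in B. At an unadjusted p under 0.05 in experiment B, 2 fibroblast, 0 endothelium and 2 macrophage markers were counted. All 8 fibroblast and all 8 macrophage markers had a log2 fold change above 0 in B, with medians of 0.49 and 0.56 against -0.12 over all genes. Col1a1 had the largest, 2.39 (adjusted p = 0.0812, limma). In experiment A edgeR gave 1, 1 and 0 at that level, and DESeq2 called 0, 1 and 0 after adjustment.

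**Figure D5:**
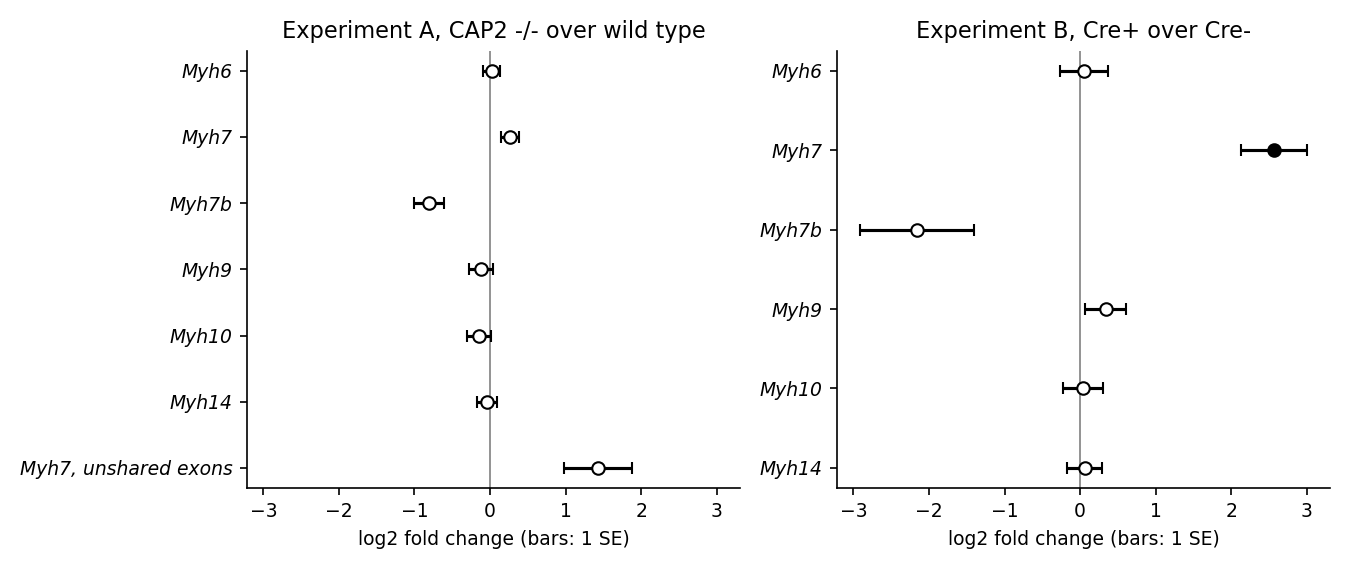
Log2 fold change with 1 SE for each of the 6 members, CAP2 -/- over wild type (edgeR) and Cre+ over Cre- (limma), with filled symbols where the adjusted p is under 0.05. The only filled member is Myh7 in experiment B, at 2.57.

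The members' partners in the thick filament were counted from lists of known genes. The remaining heavy chains of smooth and skeletal muscle had 0 of 7 tested genes called in experiment A and 0 of 1 in experiment B, with 0 at an unadjusted p under 0.05 and 0 called by DESeq2 in A. That 1 gene, Myh11 of smooth muscle, had a log2 fold change of -0.35 (adjusted p = 0.511, edgeR) in A and 0.36 (adjusted p = 0.797, limma) in B. Among genes below the filter in B, Myh8, the perinatal skeletal chain, was listed at 0, 19, 10 and 15 normalized counts in Cre+ hearts and at 0 in all 5 Cre- hearts. Myh13, the extraocular chain, was listed at 2, 4, 3 and 6 in Cre+ hearts and at 0 in all 5 Cre- hearts. The pair is named here because of these values, was not tested, and lies at or near the level of a few reads.

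Of 11 light chain genes tested, 2 rose and 0 fell in each experiment (edgeR in A, limma in B). DESeq2 called 3 in A, and 3 in A and 6 in B had an unadjusted p under 0.05 in the main tests. The list had a median log2 fold change of 0.30 in A and 0.78 in B, against 0.01 and -0.12 over all genes. Both that rose were Myl9, a regulatory chain of smooth muscle and non-muscle myosin, and Myl1, an essential chain of fast skeletal muscle. Myl9 had a log2 fold change of 4.54 in A (adjusted p = 4.81e-09, edgeR) and 3.90 in B (adjusted p = 0.0264, limma). In B that call was lost without Cre+ replicate 2, 3 or 4 or Cre- replicate 1 or 2, with an adjusted p of up to 0.169 (limma), and with the mitochondrial share as a covariate (0.0840). Myl1 had 1.45 in A (adjusted p = 1.94e-04, edgeR) and 3.35 in B (adjusted p = 9.63e-04, limma). Myl2, the ventricular regulatory chain that pairs with the cardiac heavy chains, had 0.05 in A (adjusted p = 0.957, edgeR) and -0.79 in B (adjusted p = 0.252, limma). Of 8 smooth muscle markers in B, 1 rose: Des, desmin, which cardiomyocytes also make in quantity (1.70, adjusted p = 0.0259, limma). Its call was lost without Cre+ replicate 2, 3 or 4 or Cre- replicate 1, 2 or 3 (adjusted p up to 0.106, limma) and with the mitochondrial share as a covariate (0.130). The marker sum was 29020 to 52677 normalized counts in Cre+ hearts and 11722 to 19915 in Cre- hearts. Des made up 74.1 to 91.2% of it in Cre+ hearts and 54.1 to 80.8% in Cre- hearts. Without Des the sums overlapped, at 3831 to 8670 in Cre+ hearts and 3553 to 9134 in Cre- hearts.

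Of the chaperones and thick filament partners, 0 of 15 passed in experiment A, with 2 at an unadjusted p under 0.05 and 0 by DESeq2, and 1 of 16 rose in B. That 1 was Mybpc2, the fast skeletal myosin-binding protein C, at 1.73 (adjusted p = 0.0226, limma). The call was lost without Cre+ replicate 2 or 4 or Cre- replicate 1 or 2 (adjusted p up to 0.0809, limma) and with the mitochondrial share as a covariate (0.0889). Of 4 skeletal muscle markers tested in B, 2 rose with it, the fast troponins Tnni2 (4.89) and Tnnt3 (5.89), both at an adjusted p of 0.00132 (limma); in A 0 of 8 passed in edgeR, with 2 at an unadjusted p under 0.05, and DESeq2 called 1. Unc45b, the muscle chaperone that folds myosin heads, had -0.08 in A (adjusted p = 0.893, edgeR) and -0.60 in B (adjusted p = 0.157, limma). Mybpc3, the cardiac myosin-binding protein C, had 0.14 (adjusted p = 0.766, edgeR) and 0.06 (adjusted p = 0.916, limma). Of the light chain kinases and the phosphatase, 0 of 7 passed in each experiment, with 0 in A and 1 in B at an unadjusted p under 0.05 and 0 by DESeq2 in A.

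Known transcriptional regulators of the cardiac myosin genes gave no calls, 0 of 24 in A (edgeR; 2 at an unadjusted p under 0.05, 0 by DESeq2) and 0 of 23 in B (limma; 6 at an unadjusted p under 0.05). Their median log2 fold change was -0.02 in A and -0.25 in B. In B 7 of the 23 had a log2 fold change above 0. Among these was Nkx2-5, with the smallest p of the list there (0.73, adjusted p = 0.116, limma). Srf was also among them (0.58, adjusted p = 0.184, limma). An unadjusted p under 0.05 was common over all genes: 1568 of 16297 had it in A by DESeq2, and 2622 of 12140 in B by limma with a replicate block. The all-gene count at that level in the main tests is not given here. Tead1, which binds the MCAT element, had -0.27 in A (adjusted p = 0.425, edgeR) and -0.58 in B (adjusted p = 0.393, limma). Sox6, a repressor of slow muscle genes, had -0.04 in A (adjusted p = 0.968, edgeR) and -0.69 in B (adjusted p = 0.201, limma). Thra, the thyroid hormone receptor through which Myh6 is raised and Myh7 lowered, had -0.17 in A (adjusted p = 0.666, edgeR) and -0.34 in B (adjusted p = 0.599, limma). Of the regulators of non-muscle myosin activity, 0 of 13 passed in each experiment, with 0 in A and 6 in B at an unadjusted p under 0.05 and 0 by DESeq2 in A.

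Mhrt is a long non-coding RNA antisense to Myh7 that is known to restrain the switch to the beta chain in mice. Of the 4 listed RNAs inside or antisense to the cardiac myosin genes, Mhrt alone could be tested. It had 50.8, 51.9 and 46.4 CPM in CAP2 -/- hearts and 44.1, 30.9 and 54.0 CPM in wild type hearts. In experiment B it had 410, 302, 298 and 204 normalized counts in Cre+ hearts and 549, 544, 393, 86 and 197 in Cre- hearts. The groups overlapped in both, with log2 fold changes of 0.20 (adjusted p = 0.761, edgeR) and -0.19 (adjusted p = 0.745, limma). If the counting of experiment A did not use strand, reads of Mhrt and Myh7 cannot be told apart there. Other annotated antisense genes, such as Gm31251 at Myh7 and Gm49130 at Myh6, were not on the list and are not reported.

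The genes most like each member were ranked by Pearson correlation of log2 levels over the libraries of an experiment, 9 in B and 6 in A, and such values share the groups and the depth of those libraries. In experiment B Myh7 was most like Cav3, of muscle caveolae (r = 0.986), Cnn2, an actin-binding calponin (0.968), and Tln1, a talin (0.965). Myh7b was most like Arfrp1 (0.987), Pank4 (0.977) and Nfatc2 (0.975). In experiment A the Myh7 gene row was most like Megf9, Dnhd1 and Rbms3, while the unshared exons of Myh7 were most like Kifap3 (0.988), Rabgap1l (0.986) and Tgfb1i1 (0.986). The gene row and the unshared exons named no gene in common among their first 3. With 12956 candidate genes and 6 libraries, high correlations arise readily, so nothing is read from that.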

How the data were processed

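Of 16 labelled mouse heart samples 15 had values; the other, a Cre+ sample, was not analysed here. Per the labels' protocols, an Ion Total RNA-Seq kit served for experiment A and a stranded Illumina TruSeq kit for experiment B. The submitters' processing notes name STAR 2.6.0c, DESeq and mm10, with no role for each. How reads were counted, with which annotation and strand setting, is not given in the sources used here.

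The authors deposited estimated counts for each gene and exon of experiment A; 26.5% of the gene values were whole within 0.000001. Per the file headers, the authors' comparison for experiment A holds a mean signal, a log2 fold change and p-values for each gene. The normalized counts that the authors deposited for experiment B are whole numbers of unstated normalization, so each was treated as a score and none was given to a count test.

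For experiment A the estimated counts were rounded. The main test there was the robust quasi-likelihood test of edgeR 4.0.16 (R 4.3.3) after TMM and filterByExpr. Gene levels are TMM-scaled CPM, whereas exon levels use unadjusted library totals. An SE in edgeR was taken as the fold change over the square root of F. For experiment B, limma 3.58.1 (robust trend) was run on log2(value + 1) with a sex term, for genes averaging 10 or more; low genes then show too small a fold change. All 6 members passed both filters. Adjustment was by Benjamini-Hochberg across every gene tested, and passing, or being called, means an adjusted p under 0.05. Shares were compared with exact permutation tests (scipy 1.17.1). The fits were first tested on simulated data. Exons and names came from GENCODE M21, which holds 36308 of the 38087 identifiers in A and 54079 of the 54232 in B. A mostly shared exon had at least 50% of its 30-base words in another gene.

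Members were taken by symbol, and the 3 genes most like each were found by Pearson correlation. Members and gene lists were chosen with earlier results of these data known. Each analysed sample has a number of its own in the labels, which do not say whether it stands for an animal; if it does not, the spread behind the p-values could be technical. Alternatives were another normalization, DESeq2 1.42.0, no filter, another pseudocount, other scaling, covariates, females alone, a replicate block and each library left out.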

Additional observations from a re-analysis of the deposited data

Results flagged for a closer look

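In experiment B, Myh7b in Cre+ replicate 1, at 912 normalized counts, stood apart from the other Cre+ hearts, which had 112, 78 and 127; the gap took 0.941 of the range of the group, past Dixon's critical value for 4 samples. The value lies inside the range of the Cre- hearts, 89 to 2838. Without that heart the log2 fold change of Myh7b was -2.74 (adjusted p = 0.0508, limma), against -2.16 with it.

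Myh14 in Cre- replicate 1, at 738 normalized counts, stood apart from the other Cre- hearts, which had 477, 438, 424 and 506; the gap took 0.739 of the range, past the critical value for 5 samples. Of the 16 groups of values checked, 2 held such a sample, and chance gives about 1 in 20. All groups checked were of experiment B, since those of experiment A were too small for the check.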

How the results depend on the processing

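Of 502 alternative values, 202 under another setting and 194 with a library left out kept their direction and their side of the threshold. Experiment A called 220 genes, and 402 with DESeq2, 512 without the filter on low counts and 4 with the atrial marker sum as a covariate. Experiment B called 228 genes, and 346 without the filter, 36 with the mitochondrial share, 17 with Myl7 and 0 with the atrial sum as covariates. The split of calls in B, 115 higher and 113 lower, became 151 and 67 with TMM scaling and 211 and 124 with quantile normalization. The atrial sum is nearly the same as the group, and with it log2 fold changes reversed in A for Myh6 (-1.43), Myh7 (-0.73), Actc1 (-1.04), Dkk3 (-4.38), Myl1 (-2.22) and Nppa (-0.71), and in B for Myh7 (-0.11), Myh9 (-0.91), Myh10 (-0.73) and Myl9 (-0.64). With Myl7 as a covariate in B, Myh7 was at 1.69, past no threshold, and Myh10 at -0.27. With the mitochondrial share Myh7 was at 2.81, also not called, and Myh6 at -0.0081. Scaling to the nuclear total put Myh10 at -0.012. Myh7b in A was called with DESeq2 (-0.81, adjusted p = 0.00787) and without the filter (-0.83, adjusted p = 1.73e-05, edgeR). Nppa and Dkk3 are themselves part of the atrial sum, so their reversal in A with that covariate says nothing about them. The cause of the moves above was not tested.

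Leaving out each library gave 126 to 275 calls in A and 39 to 695 in B. In B the count was 39 without Cre+ replicate 2, 48 without Cre+ replicate 3, 57 without Cre+ replicate 4 and 48, 45 and 82 without Cre- replicates 1, 2 and 3. It was 695 without Cre+ replicate 1, and 403 and 525 without Cre- replicates 4 and 5. In A it was 137 without CAP2 -/- replicate 2, 126 without CAP2 -/- replicate 3 and 144 without wild type replicate 3. Log2 fold changes in A ranged from -0.035 to 0.14 for Myh6, -1.03 to -0.63 for Myh7b, -0.29 to 0.054 for Myh9, -0.26 to -0.0053 for Myh10, -0.17 to 0.051 for Myh14 and 1.22 to 1.75 for the unshared exons of Myh7. In B they ranged from 1.95 to 2.82 for Myh7, -0.12 to 0.18 for Myh6, -2.88 to -1.61 for Myh7b, 0.18 to 0.47 for Myh9, -0.14 to 0.26 for Myh10 and -0.048 to 0.21 for Myh14. The Myh10 share in A differed by -1.52 to 0.349 points and that in B by -5.26 to -2.12 points.

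With group means removed, correlations between same-numbered samples were -0.17, -0.15 and -0.03 in A and 0.24, -0.11, 0.18 and 0.03 in B. So few samples cannot show whether the numbers pair them, and the labels do not say. A replicate block moved the count of calls in A by less than 1.5 times and gave 394 in B (258 higher, 136 lower), where Cre- replicate 5 has no partner; Myh7 in B was at 2.63 (adjusted p = 0.0254, limma), 2 fibroblast markers and 1 macrophage marker were called in B, and Myh7b in A was at -0.82 (adjusted p = 0.0969, edgeR).

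The unknown depth of experiment B limits statements on low values, and the shared exons limit the level of Myh7 in both experiments.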
